A study of Homo sapiens with 20 samples.

Results

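The mitochondrial ribosomal protein genes were chosen as all genes whose symbol in the platform's probe-to-gene annotation starts with MRPL or MRPS followed by a digit. This gave 74 of the 18417 named genes, carried by 78 transcript clusters (a cluster is the set of probes read out as 1 value). A cluster counted only if the annotation gave it 1 symbol, and the brightest cluster stood for a gene with several. Of the 74 genes, 50 encode proteins of the large subunit, 23 encode proteins of the small subunit, and MRPS31P5 is a pseudogene. MRPS18A and MRPS30 carry the S of the small subunit in their names but sit in the large one, and were counted there.

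RNA came from B5/589 cells, an immortalized line of human mammary epithelium in which doxycycline switches on a p53 transgene that all 5 groups carry. Cells were induced with 3 ng or 5 ng of doxycycline, each read after 12 h and after 24 h, or received 0 ng and were read after 24 h, with 4 arrays in each group. The doses carry no volume in the labels, and no uninduced cells were read at 12 h. The labels are silent on whether a group's 4 arrays are separate cultures, so the p-values cover only the spread between arrays, and that spread may be technical. All groups grew in the same medium with serum and human EGF.

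Mitochondria translate the few proteins that their own genome encodes, which are core subunits of the respiratory chain and ATP synthase, on a ribosome of their own. The RNAs of that ribosome come from mitochondrial DNA, while every protein of it is encoded in the nucleus, made in the cytosol and imported. Part of the proteins have counterparts in bacterial ribosomes and the rest are particular to mitochondria. Here 41 genes belonged to the first class and 32 to the second. Promoters of nuclear genes for mitochondrial proteins are known for sites of NRF1, of ETS family factors such as GABP, and of YY1.

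RefSeq promoter windows of 300 bases (250 before to 50 after the annotated start, build GRCh38.p14) were at hand for 66 of the 74 genes and for 14236 measured genes in all. The ETS letters CCGGAAG stood on either strand in 28 of the 66 (42.4%, against 14.6% of all 14236). The YY1 letters AAGATGGC stood in 18 of the 66 (27.3%, against 4.07% of all). In 13 of these 18 they lay on the gene's own strand after the start, with the first letter 6 to 35 bases past it. Over all measured genes the same held for 327 of the 580 promoters with a match, at 0 to 42 bases. The full NRF1 palindrome (GCGCA followed directly by its complement TGCGC) stood in 1 promoter, that of MRPL17 (1.52%, against 1.8% of all), and its arm GCGCA in 43 (65.2%, against 50% of all). The E-box CACGTG was in 6 (9.09%, against 8.88% of all) and the p53 half-site in 4 (6.06%, against 5.94% of all). None of the motifs was searched for with overlap removed, so GCGCA is counted inside the palindrome too, and a match is a description of letters only. The letters AAGATGGC contain ATG, and whether a match past the start is the gene's start codon was not examined.

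The windows below are those of genes on which the results turn, printed 5′ to 3′ on the gene's strand, with CCGGAAG and AAGATGGC (or their complements) in capitals. With 5 ng against 0 ng at 24 h MRPS25 had the lowest and MRPL39 the highest difference on both scales, and neither window holds either motif. MRPL20, MRPS27 and MRPS30 fell and have AAGATGGC just past the start, and MRPL20 has CCGGAAG too. MRPL27 and MRPL53 were higher at both doses after quantile normalization and have CCGGAAG. These windows are examples and show no split of CCGGAAG by direction. At 5 ng after quantile normalization CCGGAAG stood in 33.3% of the windows of members that fell and in 37.5% of those that rose. The windows lie at chr3:15065266-15065565 (minus strand) for MRPS25, chr1:1407244-1407543 (minus) for MRPL20, chr5:72320191-72320490 (minus) for MRPS27, chr5:44808697-44808996 (plus) for MRPS30, chr21:25607432-25607731 (minus) for MRPL39, chr17:50373135-50373434 (minus) for MRPL27 and chr2:74472631-74472930 (minus) for MRPL53.
MRPS25: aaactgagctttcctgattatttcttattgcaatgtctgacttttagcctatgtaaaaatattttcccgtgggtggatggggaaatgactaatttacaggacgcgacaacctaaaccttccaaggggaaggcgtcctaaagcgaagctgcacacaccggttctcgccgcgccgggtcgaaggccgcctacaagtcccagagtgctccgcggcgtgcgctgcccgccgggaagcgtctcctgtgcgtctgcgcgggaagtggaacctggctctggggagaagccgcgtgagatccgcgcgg
MRPL20: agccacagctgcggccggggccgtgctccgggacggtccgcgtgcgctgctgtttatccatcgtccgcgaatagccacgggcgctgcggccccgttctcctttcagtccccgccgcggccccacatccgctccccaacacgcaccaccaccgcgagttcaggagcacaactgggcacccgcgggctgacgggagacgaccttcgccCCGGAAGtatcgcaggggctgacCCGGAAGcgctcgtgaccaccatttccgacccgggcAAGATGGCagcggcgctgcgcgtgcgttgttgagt
MRPS27: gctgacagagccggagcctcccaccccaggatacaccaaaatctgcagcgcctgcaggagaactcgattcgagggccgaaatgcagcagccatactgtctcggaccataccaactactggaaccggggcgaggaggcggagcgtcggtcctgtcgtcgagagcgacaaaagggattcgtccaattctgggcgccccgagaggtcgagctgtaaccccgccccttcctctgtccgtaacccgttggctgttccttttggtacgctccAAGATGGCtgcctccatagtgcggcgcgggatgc
MRPS30: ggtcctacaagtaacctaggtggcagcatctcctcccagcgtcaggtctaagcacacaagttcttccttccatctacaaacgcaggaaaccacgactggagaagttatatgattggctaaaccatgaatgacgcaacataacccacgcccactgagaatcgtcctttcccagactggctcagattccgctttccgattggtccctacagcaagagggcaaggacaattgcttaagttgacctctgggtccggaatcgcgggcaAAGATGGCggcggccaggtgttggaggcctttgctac
MRPL39: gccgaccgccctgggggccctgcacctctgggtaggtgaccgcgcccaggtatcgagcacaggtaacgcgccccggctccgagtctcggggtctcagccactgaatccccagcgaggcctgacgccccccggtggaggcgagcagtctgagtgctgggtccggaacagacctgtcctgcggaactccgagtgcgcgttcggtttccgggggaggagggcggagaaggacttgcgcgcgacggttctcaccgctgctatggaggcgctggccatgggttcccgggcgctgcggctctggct
MRPL27: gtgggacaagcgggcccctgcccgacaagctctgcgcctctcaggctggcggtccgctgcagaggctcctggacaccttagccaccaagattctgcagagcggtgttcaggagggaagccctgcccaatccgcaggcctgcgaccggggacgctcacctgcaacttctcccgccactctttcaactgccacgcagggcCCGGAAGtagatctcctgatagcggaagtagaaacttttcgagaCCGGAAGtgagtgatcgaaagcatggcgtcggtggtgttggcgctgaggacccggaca
MRPL53: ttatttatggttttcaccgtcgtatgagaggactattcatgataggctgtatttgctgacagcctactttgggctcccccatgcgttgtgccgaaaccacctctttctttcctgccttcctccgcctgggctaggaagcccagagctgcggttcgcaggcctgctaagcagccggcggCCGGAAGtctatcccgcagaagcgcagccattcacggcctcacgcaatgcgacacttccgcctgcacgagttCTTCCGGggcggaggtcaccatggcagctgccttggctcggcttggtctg

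Deposited values were log2 signals, and the arrays differed in brightness, with a median over all clusters between 4.54 and 5.54. The 3 ng arrays at 24 h had a mean median of 4.85 ± 0.13 (SD, n = 4) and the 5 ng arrays at 24 h of 4.80 ± 0.20, against 5.07 ± 0.15 in the 0 ng arrays. The counts of members called in each comparison are therefore given as deposited and after quantile normalization of all 33297 clusters, which gives the arrays 1 distribution. The median log2 difference of all genes between 5 ng and 0 ng at 24 h was -0.24 as deposited and 0.07 after quantile normalization, and between 3 ng and 0 ng it was -0.235 and 0.08. CDKN1A, the p53 target that encodes p21, was higher at both doses (deposited means at 24 h of 8.62, 9.34 and 10.05 at 0, 3 and 5 ng), and the proliferation marker MKI67 was lower (9.34, 6.53 and 5.27). Neither the brightness of the arrays nor MKI67 was tested for its part in the results that follow. Among the epithelial markers, KRT5, KRT14, ITGA6, KRT8, KRT18, EPCAM and CDH1 averaged 9.58 (CDH1 at 0 ng) or more at 24 h. KRT17 and TP63, also chosen as epithelial markers, are not reported here. Of the immune, endothelial and fibroblast markers, PTPRC and DCN stood at the bottom of the scale (-0.34 and 0.01 at 0 ng), whereas the highest, CD68 and COL1A1, averaged 8.82 and 6.34.

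The mitoribosomal genes were bright on these arrays. Over the 20 arrays, 71 of the 74 means lay above the median of all genes, and their median stood at percentile 82.5 of all genes. The highest means were those of MRPL49 (11.26), MRPL36 (10.39) and MRPL45 (10.38), and the lowest those of MRPS31P5 (4.75), MRPL54 (5.40) and MRPL34 (5.70). These are probe signals, which do not rank the amounts of different RNAs. No member was among the dimmest 30% of genes.

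**Figure D1:**
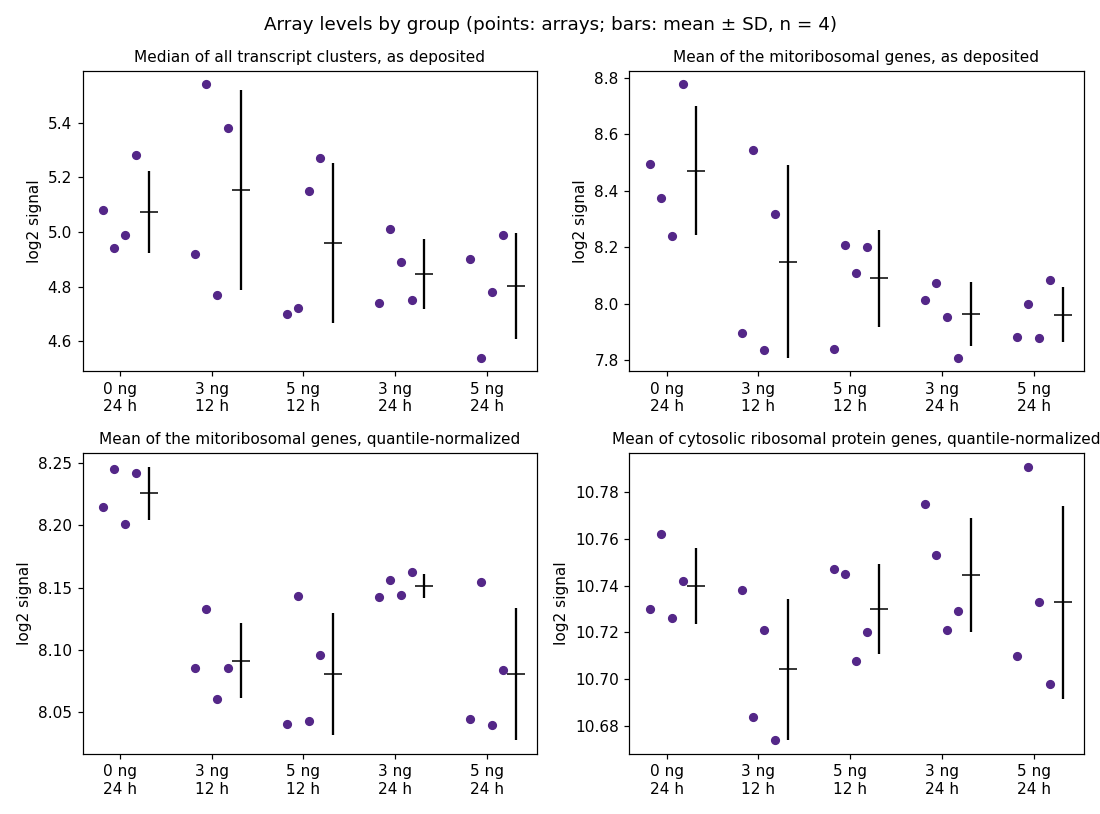
Each point is 1 array, in log2 signal, by dose and time, and bars show the mean ± SD of 4 arrays. The mean of the 74 mitoribosomal genes after quantile normalization was at most 8.16 in any induced array, against 8.20 to 8.25 in the 0 ng arrays. On the same scale the mean of the cytosolic ribosomal protein genes overlapped between all groups.

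As a mean over the members, the signal was lower in every induced group than in the uninduced cells. After quantile normalization the mean of the 74 genes was 8.09 ± 0.03 (SD, n = 4) at 3 ng and 8.08 ± 0.05 at 5 ng after 12 h, and 8.15 ± 0.01 at 3 ng and 8.08 ± 0.05 at 5 ng after 24 h, against 8.23 ± 0.02 at 0 ng. No induced array reached the lowest 0 ng array of 8.20. As deposited, the means were 8.15 ± 0.34 and 8.09 ± 0.17 at 12 h and 7.96 ± 0.11 and 7.96 ± 0.10 at 24 h, against 8.47 ± 0.23, and at 12 h the 3 ng arrays overlapped the 0 ng arrays. The 58 cytosolic ribosomal protein genes, whose products build the ribosome of the cytosol, averaged 10.70 to 10.74 in all groups after quantile normalization. As deposited they averaged 10.94 at 0 ng and 10.58 to 10.74 in the induced groups. There the 3 ng arrays at 24 h (10.39 to 10.70) lay below every 0 ng array (10.701 to 11.25). The contrast with the mitoribosomal genes thus depends on the scaling. In a bulk sample, fewer cells of a kind and less RNA per cell cannot be told apart.

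With 5 ng against 0 ng at 24 h, 43 of the 74 genes fell as deposited and 0 rose (limma, Benjamini-Hochberg adjusted p under 0.05 over all 18417 genes). Over all genes 23.5% fell and 4.52% rose. After quantile normalization 31 fell, against 17.2% of all genes, and 8 rose, against 20.6% of all genes. All 31 were among the 43, and 24 of them also fell when each array was centred on its own median, where 14.8% of all genes fell. The median log2 difference of the members was -0.50 as deposited (all genes -0.24) and -0.15 after quantile normalization (all genes 0.07). Arrays of the 2 groups did not overlap, with 5 ng lower, for 43 members as deposited (27% of all genes) and for 27 after quantile normalization (16% of all genes).

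With 3 ng against 0 ng at 24 h, 40 fell and 0 rose as deposited in the limma fit, where 23% of all genes fell and 1.5% rose. After quantile normalization 18 fell and 4 rose, against 12.5% and 15.4% of all genes. All 18 were among the 40. With median-centred arrays 20 members fell, where 12.8% of all genes fell, and 15 of the 18 were among them. The median log2 difference of the members was -0.50 as deposited (all genes -0.235), and -0.06 after quantile normalization (all genes 0.08). Both comparisons use the same 4 arrays of 0 ng.

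Without 1 array the deposited counts ran from 28 to 50 falls at 5 ng and from 24 to 50 at 3 ng. Of the 43 calls at 5 ng 28 held in all 20 such fits, and of the 40 at 3 ng 24 did. The lowest counts came without replicate 4 of 0 ng, the brightest array of its group (28 falls at 5 ng and 24 at 3 ng), and without replicate 4 of 3 ng at 24 h the count at 3 ng was 25. After quantile normalization the falls ran from 29 to 31 at 5 ng and from 13 to 19 at 3 ng.

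**Figure D2:**
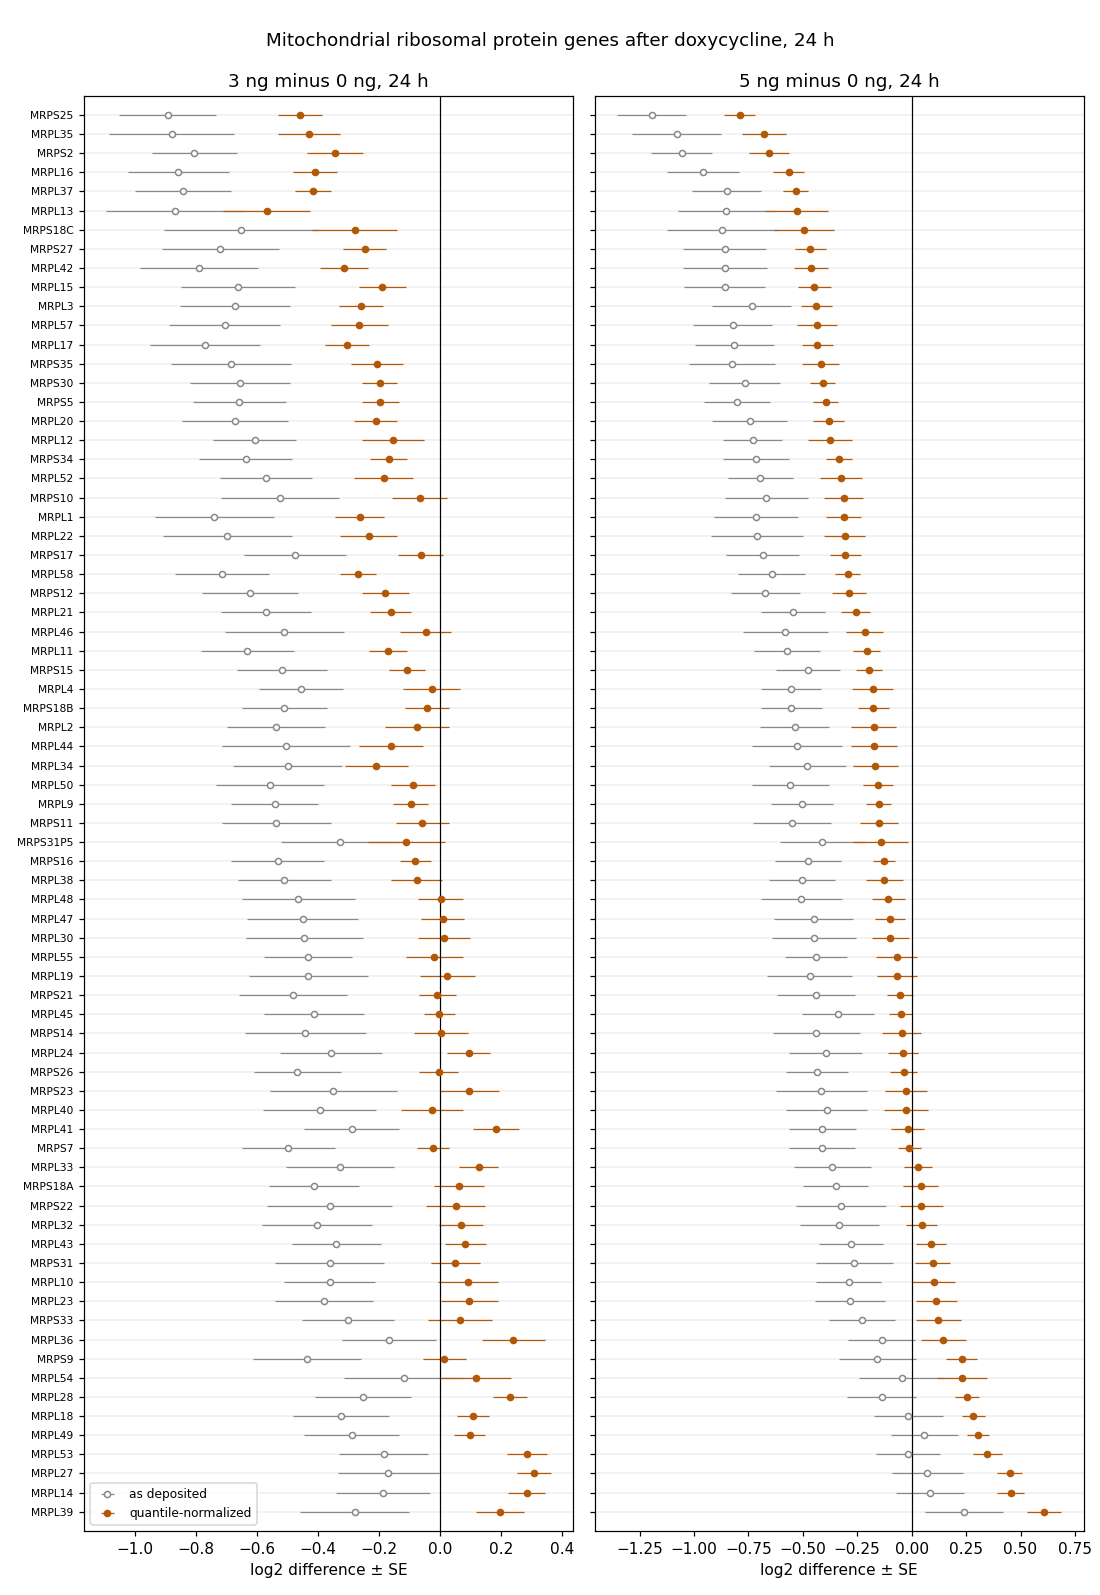
Log2 differences ± SE of the 74 genes at 24 h, 3 ng minus 0 ng on the left and 5 ng minus 0 ng on the right, sorted by the quantile-normalized difference at 5 ng. Open points are deposited values, which at 5 ng ran from -1.20 for MRPS25 to 0.24 for MRPL39, and filled points are quantile-normalized ones, from -0.79 to 0.61.

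Among small subunit proteins, 11 of 23 fell and 1 rose at 5 ng after quantile normalization, against 17.2% and 20.6% of all genes. Their median was -0.18, and 16 fell as deposited (23.5% of all genes). MRPS25, a protein particular to mitochondria, read 6.47, 6.52, 6.55 and 6.77 in the 5 ng arrays at 24 h, against 7.72, 7.63, 7.62 and 8.12 in the 0 ng arrays. The groups stood apart, and the 3 ng arrays, at 7.0, 6.76, 6.92 and 6.84, lay below every 0 ng array too. MRPS25 was 2.29-fold lower at 5 ng (log2 difference -1.20 ± 0.16, SE, n = 4, adjusted p = 6.73e-06 in limma) and 1.73-fold lower after quantile normalization (-0.79 ± 0.07, adjusted p = 4.62e-08). At 3 ng the differences were -0.89 ± 0.16 and -0.46 ± 0.07. Its 12 h arrays read 7.05, 7.67, 7.03 and 7.45 at 3 ng and 6.87, 7.23, 7.26 and 7.20 at 5 ng.

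MRPS2, a counterpart of bacterial S2, read 7.10, 7.23, 7.15 and 7.21 with 5 ng at 24 h, against 8.22, 8.06, 8.26 and 8.38 with 0 ng. Its 12 h arrays were lower than all 0 ng arrays as well, with 7.49 to 7.89 at 3 ng and 7.22 to 7.75 at 5 ng. The MRPS2 difference at 5 ng was -1.06 ± 0.14 (limma, adjusted p = 5.91e-06) as deposited and -0.66 ± 0.09 (adjusted p = 1.26e-05) after quantile normalization. Only MRPS25, MRPL35 and MRPS2 reached a 2-fold difference in the deposited values at 5 ng, and no member did after quantile normalization. MRPS5, the counterpart of bacterial S5, fell by 0.80 ± 0.15 as deposited and by 0.40 ± 0.06 after quantile normalization at 5 ng.

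MRPS27, an RNA-binding protein of the pentatricopeptide repeat family, read 8.09, 8.09, 8.08 and 8.26 in the 5 ng arrays, against 9.09, 8.89, 8.61 and 9.37 in the 0 ng arrays at 24 h. The difference was -0.86 ± 0.19 (limma, adjusted p = 0.0017), and -0.47 ± 0.07 after quantile normalization (adjusted p = 3.01e-05). MRPS34, particular to mitochondria, fell by 0.71 ± 0.15 and by 0.33 ± 0.06 on the 2 scales. MRPS12, the counterpart of the S12 protein near the decoding site, fell by 0.67 ± 0.16 and by 0.29 ± 0.08 at 5 ng, and at 3 ng by 0.62 ± 0.16 as deposited, with -0.18 ± 0.08 after quantile normalization (adjusted p = 0.0978). The falls of MRPS10, MRPS15, MRPS17 and MRPS35 at 5 ng also passed on both scales, at -0.31, -0.20, -0.30 and -0.42 after quantile normalization.

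Other small subunit genes passed on 1 scale or on neither. MRPS7 and MRPS16, counterparts of bacterial S7 and S16, fell as deposited at 5 ng (-0.41 ± 0.15 and -0.48 ± 0.15) and differed by -0.01 ± 0.05 and -0.13 ± 0.05 after quantile normalization, with limma adjusted p of 0.902 and 0.0615. MRPS22, particular to mitochondria, gave -0.33 ± 0.20 and 0.04 ± 0.10, which passed on neither scale. MRPS9, the counterpart of S9, was the 1 small subunit gene that rose after quantile normalization, by 0.23 ± 0.07 (adjusted p = 0.0162), and its deposited difference was -0.16 ± 0.18.

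The 3 paralogs of bacterial S18 take separate places in the ribosome. MRPS18C, the one most like the bacterial protein, read 5.79, 5.61, 5.74 and 6.33 with 5 ng at 24 h, against 6.84, 6.66, 6.31 and 7.14 with 0 ng, so that 1 array of 5 ng exceeded the lowest of 0 ng. It fell by 0.87 ± 0.25 (limma, adjusted p = 0.0127) and after quantile normalization by 0.50 ± 0.14 (adjusted p = 0.00755). MRPS18B, of the small subunit, fell by 0.55 ± 0.14 as deposited, with -0.18 ± 0.07 after quantile normalization (adjusted p = 0.0586). MRPS18A, of the large subunit, gave -0.35 ± 0.15 and 0.04 ± 0.08 at 5 ng, neither of which passed, and at 3 ng it fell by 0.41 ± 0.15 as deposited, with 0.06 ± 0.08 after quantile normalization.

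In the large subunit, 20 of 50 genes fell and 7 rose at 5 ng after quantile normalization, against 17.2% and 20.6% of all genes. The share that rose lies below that of all genes. Their median was -0.14, and 27 fell as deposited (23.5% of all genes). MRPL35, a counterpart of bacterial L35, read 6.96, 6.98, 6.96 and 7.03 in the 5 ng arrays at 24 h, against 8.13, 8.04, 7.73 and 8.35 in the 0 ng arrays. The 3 ng arrays, at 7.22, 7.32, 7.10 and 7.09, fell in the gap between them. MRPL35 was 2.11-fold lower at 5 ng (-1.08 ± 0.20, adjusted p = 0.000353 in limma) and 1.6-fold lower after quantile normalization (-0.68 ± 0.10, adjusted p = 2.32e-05).

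MRPL16, the counterpart of L16 next to the site where peptide bonds form, read 6.77, 7.08, 6.84 and 7.18 with 5 ng at 24 h, against 7.94, 7.83, 7.66 and 8.27 with 0 ng. Its difference was -0.96 ± 0.17 (limma, adjusted p = 0.00015), and -0.56 ± 0.07 after quantile normalization (adjusted p = 3.65e-06). MRPL3, the counterpart of L3, read 9.73, 9.96, 9.75 and 10.02 with 5 ng, against 10.60, 10.60, 10.28 and 10.92 with 0 ng, a fall of 0.73 ± 0.18, and of 0.44 ± 0.07 after quantile normalization. MRPL13 and MRPL15 fell by 0.85 ± 0.22 and 0.86 ± 0.19 as deposited and by 0.53 ± 0.14 and 0.45 ± 0.08 after quantile normalization. MRPL17 and MRPL20 fell by 0.81 ± 0.18 and 0.74 ± 0.17 as deposited, and by 0.43 ± 0.07 and 0.38 ± 0.07 after quantile normalization.

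MRPL12 and MRPL10 form the stalk of the large subunit, which recruits translation factors, and MRPL12 is also known to bind the mitochondrial RNA polymerase. MRPL12 read 8.66, 8.69, 8.72 and 8.68 with 5 ng at 24 h, against 9.22, 9.31, 9.45 and 9.69 with 0 ng. It fell by 0.73 ± 0.14 (limma, adjusted p = 0.000299), and by 0.37 ± 0.10 after quantile normalization (adjusted p = 0.00633). MRPL10 did not pass on either scale, with -0.29 ± 0.15 and 0.10 ± 0.10 (adjusted p = 0.166 and 0.473). Across the 20 quantile-normalized arrays, the genes whose signal was most like that of MRPL12 were SLC4A2 (Pearson's r = 0.906), TELO2 (0.903) and USP22 (0.902), which share the arrays and their groups with it.

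MRPL37 of the large subunit, a protein particular to mitochondria, read 9.35, 9.55, 9.50 and 9.58 with 5 ng at 24 h, against 10.28, 10.28, 10.18 and 10.64 with 0 ng. It fell by 0.85 ± 0.16 (limma, adjusted p = 0.00031), and by 0.53 ± 0.06 after quantile normalization (adjusted p = 4.74e-07). MRPL42, MRPL57 and MRPS30 fell by 0.46 ± 0.08, 0.44 ± 0.09 and 0.41 ± 0.06 after quantile normalization. MRPL58, a peptidyl-tRNA hydrolase that is part of the large subunit, fell by 0.64 ± 0.15 as deposited and by 0.29 ± 0.06 after quantile normalization.

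Neither MRPL44 nor MRPL41 passed at 5 ng and 24 h. MRPL44, which carries a domain like that of ribonuclease III, differed by -0.53 ± 0.21 at 5 ng as deposited and by -0.17 ± 0.10 after quantile normalization (limma, adjusted p = 0.0659 and 0.216). MRPL41, which has been described to stabilize p53, read 8.43, 8.30, 8.22 and 8.46 with 5 ng, against 8.75, 8.70, 8.48 and 9.12 with 0 ng. Although these arrays did not overlap, the MRPL41 difference of -0.41 ± 0.16 gave an adjusted p of 0.0548 in limma, and after quantile normalization it was -0.02 ± 0.07. In other comparisons MRPL41 fell as deposited with 5 ng at 12 h against 0 ng at 24 h (adjusted p = 0.0498) and rose after quantile normalization for 24 h against 12 h at 3 ng (adjusted p = 0.0281). The pseudogene MRPS31P5, at 4.21 to 4.93 with 5 ng against 4.68 to 5.13 with 0 ng, passed on neither scale. The other symbol of the fixed names, MRPS36, is not analysed here.

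A smaller set moved the other way. After quantile normalization MRPL14, MRPL18, MRPL27, MRPL28, MRPL39, MRPL49, MRPL53 and MRPS9 rose at 5 ng, and MRPL14, MRPL27, MRPL28 and MRPL53 also at 3 ng, while none of these passed as deposited. The share of 8 of 74 lies below the 20.6% of all genes that rose. With median-centred arrays 1 of them, MRPL39, rose at 5 ng and none at 3 ng. The deposited differences at 5 ng were below 0 for MRPL18, MRPL28, MRPL53 and MRPS9, so their direction depends on the scaling.

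MRPL39, which has a domain resembling that of threonyl-tRNA synthetase, read 8.88, 9.14, 9.03 and 8.93 after quantile normalization in the 5 ng arrays at 24 h, against 8.41, 8.42, 8.35 and 8.37 in the 0 ng arrays. The same arrays as deposited read 8.71, 9.06, 8.90 and 8.94 with 5 ng, against 8.72, 8.58, 8.40 and 8.94 with 0 ng, which overlap. The difference was 0.61 ± 0.08 after quantile normalization (limma, adjusted p = 3.93e-06) and 0.24 ± 0.18 as deposited (adjusted p = 0.363). MRPL27, the counterpart of a bacterial protein that reaches into the catalytic centre, read 8.89, 8.85, 8.80 and 8.80 with 5 ng after quantile normalization, against 8.35, 8.48, 8.32 and 8.40 with 0 ng, a difference of 0.45 ± 0.06, and 0.07 ± 0.16 as deposited. MRPL14 gave 0.45 ± 0.06 after quantile normalization and 0.09 ± 0.16 as deposited, and MRPL53 gave 0.35 ± 0.06 and -0.02 ± 0.15.

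**Figure D3:**
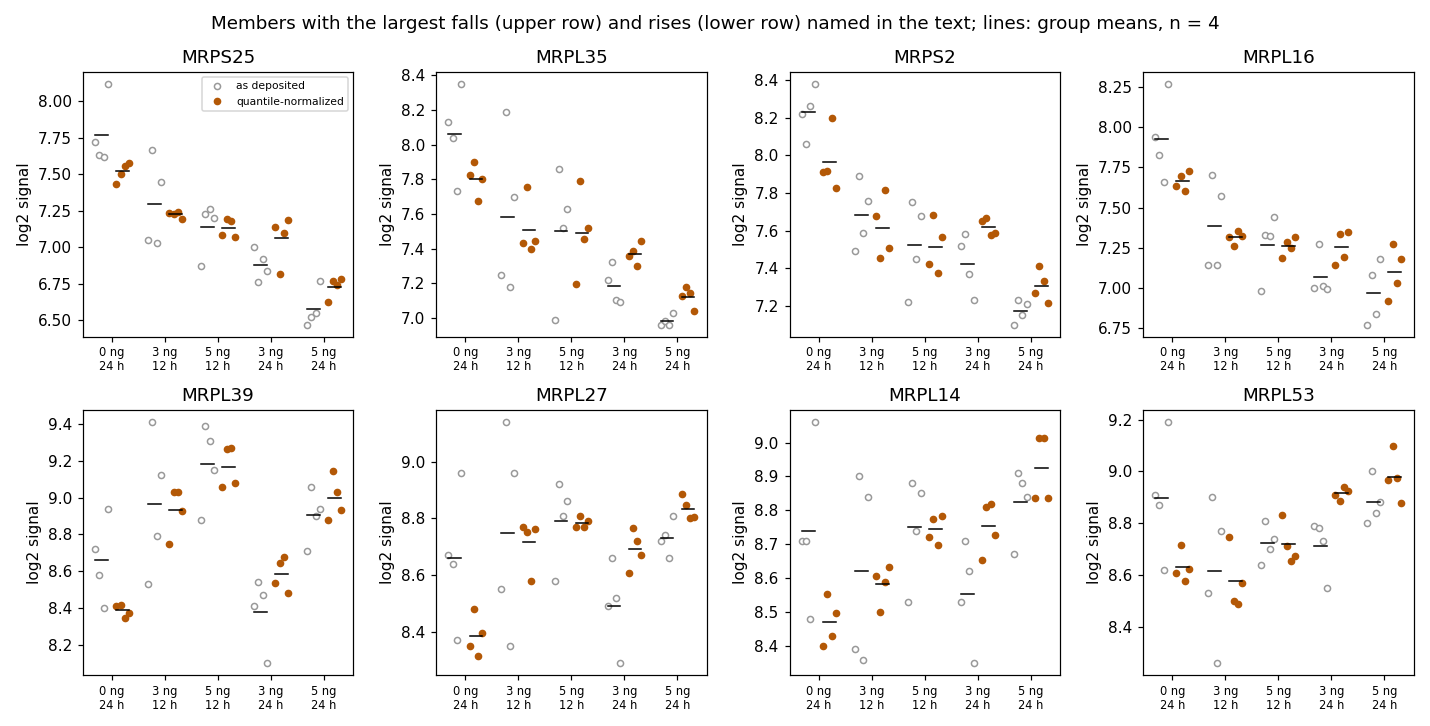
Log2 signal of 8 members by dose and time, with 1 point per array, open as deposited and filled after quantile normalization, and lines at the group means (n = 4). MRPS25, MRPL35, MRPS2 and MRPL16 in the upper row are lowest with 5 ng at 24 h on both scales, whereas MRPL39, MRPL27, MRPL14 and MRPL53 in the lower row stand above 0 ng with 5 ng at 24 h after quantile normalization.

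By class, 20 of the 41 members with bacterial counterparts fell and 5 rose at 5 ng after quantile normalization, against 11 falls and 3 rises among the 32 that are particular to mitochondria. These falls were 48.8% and 34.4% of the classes, against 17.2% of all genes, and the medians were -0.18 and -0.10. The rises stand beside 20.6% of all genes. As deposited the falls numbered 26 of 41 and 17 of 32 (23.5% of all genes). At 3 ng the falls were 10 of 41 and 8 of 32 after quantile normalization (12.5% of all genes), and 24 of 41 and 16 of 32 as deposited (23% of all genes). No test of the difference between the classes was made.

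Set beside the promoters, AAGATGGC stood in 9 of the 27 windows of genes that fell at 5 ng after quantile normalization and in 0 of the 8 windows of genes that rose. CCGGAAG stood in 9 of the 27 and in 3 of the 8, and the p53 half-site in 0 of either. For all 66 members the shares were 27.3%, 42.4% and 6.06%. These shares were not tested against each other.

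Between the doses fewer members passed. With 5 ng against 3 ng at 24 h, 0 members passed as deposited in either direction in limma, where 1.79% of all genes rose and 0.755% fell, and 2 members had an unadjusted p under 0.05. After quantile normalization 6 fell and 3 rose, against 4.42% and 5.96% of all genes. MRPS25 had the largest of these falls, and MRPS2, MRPL15, MRPS17, MRPS30 and MRPS5 fell by 0.31 ± 0.09, 0.26 ± 0.08, 0.24 ± 0.07, 0.21 ± 0.06 and 0.20 ± 0.06. MRPL39, MRPL49 and MRPL18 rose by 0.41 ± 0.08, 0.21 ± 0.05 and 0.17 ± 0.05, and MRPL39 alone also rose with median-centred arrays.

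At 12 h, 5 ng against 3 ng gave 0 calls on either scale in limma, where over all genes 0.0217% rose and 0% fell as deposited, and 2.32% rose and 0.424% fell after quantile normalization. An unadjusted p under 0.05 was found for 0 members as deposited and for 8 after quantile normalization. The interaction of dose and time (the 5 ng against 3 ng difference at 24 h minus that at 12 h) gave 0 calls on both scales, with 0 and 4 members at an unadjusted p under 0.05. Over all genes it called 0 as deposited, and after quantile normalization 0.00543% were higher and 0.0652% lower.

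The 12 h groups could be set only against 0 ng at 24 h, so dose and time differ together. With 5 ng at 12 h, 19 members fell and 0 rose as deposited in limma (over all genes 11.5% fell and 3.44% rose), and 26 fell and 5 rose after quantile normalization (14.3% and 11.5% of all genes). Of these, 17 fell on both scales. With median-centred arrays 13 members fell, where 10.7% of all genes fell, and 11 of the 17 were among them. Without 1 array the deposited falls ran from 5, when either the 4th array of 0 ng or the 1st of 5 ng at 12 h was left out, to 34, when the 2nd array of 3 ng at 12 h was. The largest quantile-normalized values belonged to MRPL39, which rose by 0.78 ± 0.08, and among the falls MRPS27 at -0.48 ± 0.07, MRPS34 at -0.47 ± 0.06, MRPL17 at -0.46 ± 0.07 and MRPS2 at -0.45 ± 0.09.

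With 3 ng at 12 h against 0 ng at 24 h, MRPS2 and MRPS34 fell as deposited and 0 rose in limma, where 1.24% of all genes fell and 1.57% rose. After quantile normalization 20 fell and 3 rose, against 8.57% and 6.61% of all genes. With median-centred arrays 45 fell and 0 rose, where 16.6% of all genes fell. MRPS2 fell by 0.55 ± 0.14 as deposited and by 0.35 ± 0.09 after quantile normalization, and MRPS34 by 0.59 ± 0.15 and 0.37 ± 0.06. MRPL34, whose bacterial counterpart is L34, had the largest quantile-normalized fall, of 0.54 ± 0.10 (adjusted p = 0.00151), against -0.52 ± 0.18 as deposited (adjusted p = 0.119). The arrays of 3 ng at 12 h spread widely as deposited, with array medians of 4.92, 5.54, 4.77 and 5.38 for replicates 1 to 4. Without replicate 2 of this group 31 members fell as deposited, and without replicate 1, 3 or 4 of it 0 did.

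With 24 h against 12 h at the same dose, 0 members passed as deposited in limma, with 7 at 3 ng and 6 at 5 ng below an unadjusted p of 0.05. At 3 ng 0.0706% of all genes rose and 4.36% fell, and at 5 ng 0.424% rose and 3.55% fell. After quantile normalization, 8 members rose and 2 fell at 24 h against 12 h with 3 ng (9.92% and 6.06% of all genes), and 4 rose and 7 fell with 5 ng (10.8% and 7.6% of all genes). The 8 rises and the 7 falls lie near the shares of all genes, and the 2 falls and 4 rises below them. These counts are no result about the members, and the genes named next are single results. MRPL28, MRPL43 and MRPL53 rose at both doses after quantile normalization. MRPL53 rose by 0.34 ± 0.06 with 3 ng and by 0.26 ± 0.06 with 5 ng, and MRPL43 by 0.32 ± 0.07 and 0.35 ± 0.07. MRPL37 fell at both doses, and MRPL39 fell by 0.35 ± 0.08 with 3 ng, with -0.17 ± 0.08 at 5 ng (adjusted p = 0.145). MRPL1, MRPL35, MRPL42, MRPS18C, MRPS25 and MRPS30 fell at 5 ng.

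The order of the 5 groups is given here for MRPL39. Its quantile-normalized means stood highest with 5 ng at 12 h, at 9.17, followed by 5 ng at 24 h (9.0) and 3 ng at 12 h (8.93), neighbours whose arrays overlapped in both steps, then 3 ng at 24 h (8.58) and 0 ng (8.39). Its differences from 0 ng were 0.55 ± 0.08 for 3 ng and 0.78 ± 0.08 for 5 ng at 12 h, and 0.20 ± 0.08 and 0.61 ± 0.08 at 24 h. The 3 ng difference at 24 h did not pass (limma, adjusted p = 0.0711). Genes most like MRPL39 over the 20 arrays were BDKRB1 (Pearson's r = 0.951), DUSP11 (0.949) and NLRP3 (0.946). MRPL39 was chosen for this comparison after its values were seen. Its rises are not particular to it. MRPL18 also rose after quantile normalization with 5 ng against 0 ng and 3 ng at 24 h, and with either dose at 12 h. MRPL49 rose in the same comparisons except that of 3 ng at 12 h.

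**Figure D4:**
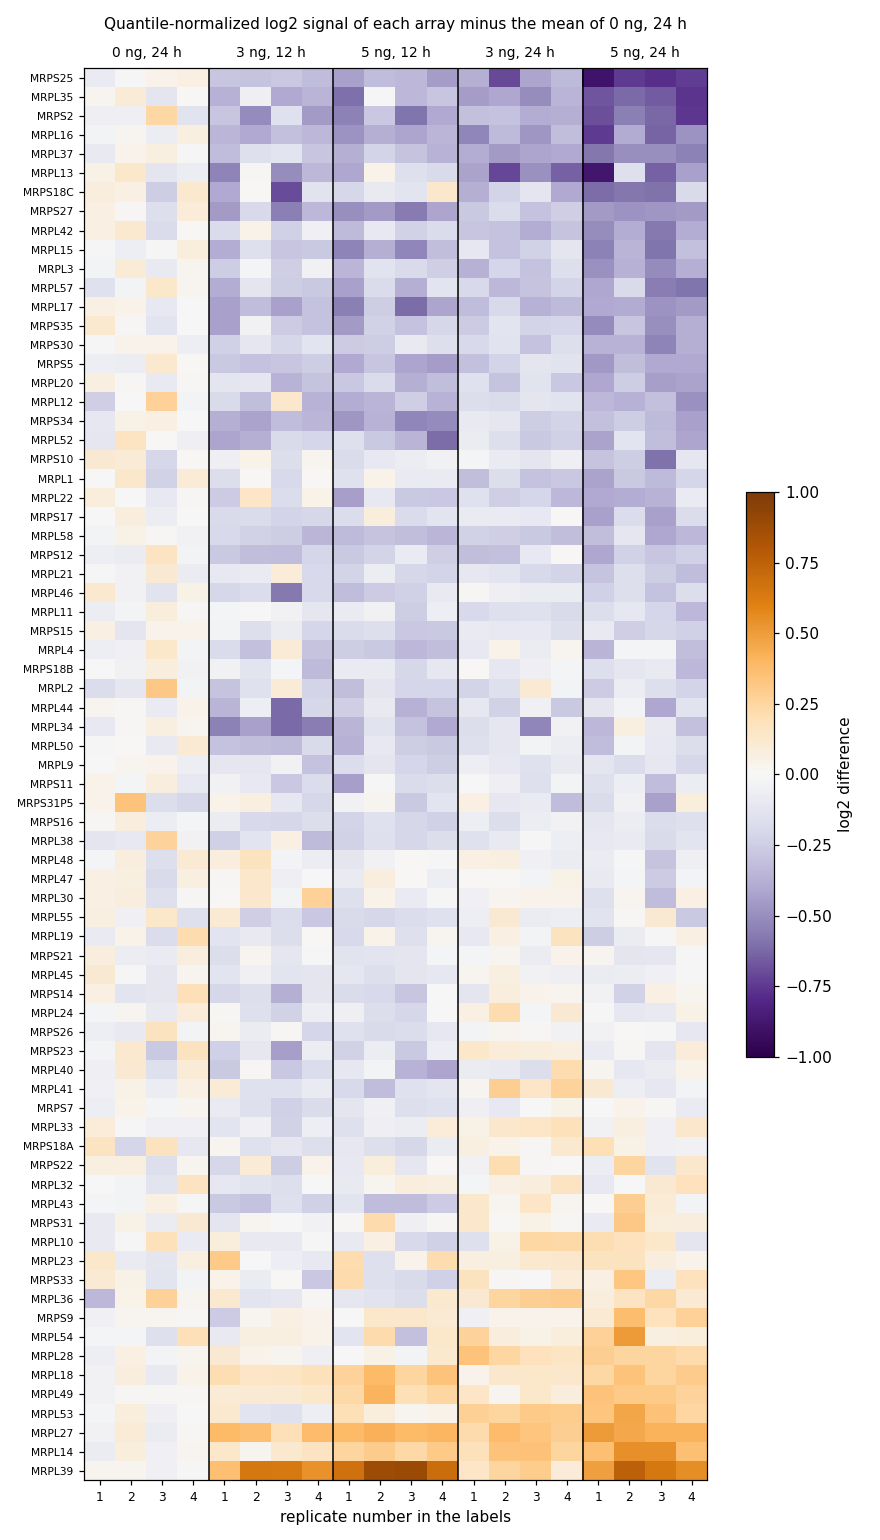
Quantile-normalized log2 signal of the 74 genes in each of the 20 arrays minus the mean of the 4 arrays of 0 ng at 24 h, with purple lower and orange higher, sorted by the difference at 5 ng and 24 h. The upper rows, led by MRPS25, MRPL35 and MRPS2, are lower in all induced groups, and MRPL39 in the last row is higher in every induced array.

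Genes that serve the mitochondrial ribosome were examined as lists, chosen with earlier results of these data known. Their counts at 5 ng stand beside 17.2% of all genes that fell and 20.6% that rose after quantile normalization, and 23.5% and 4.52% as deposited. Of 26 genes for assembly and rRNA modification, 10 (38.5%) fell and 1 rose at 5 ng after quantile normalization, and 18 fell and 0 rose as deposited. After quantile normalization MTERF3, a regulator of mitochondrial transcription and ribosome assembly, fell by 0.88 ± 0.11 (limma, adjusted p = 4.41e-06), and METTL17 by 0.47 ± 0.07. Of 15 translation factors, 6 (40%) fell and 2 rose after quantile normalization, and 10 fell and 0 rose as deposited. LRPPRC, which stabilizes mitochondrial mRNAs, fell by 0.37 ± 0.05, and the release factor gene MTRF1 fell by 0.37 ± 0.11, whereas the elongation factor gene GUF1 rose by 0.45 ± 0.07 and the initiation factor gene MTIF3 by 0.39 ± 0.07 after quantile normalization, with deposited differences of 0.06 and 0.03 that did not pass.

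Of 16 mitochondrial aminoacyl-tRNA synthetases, 3 (18.8%) fell and 4 (25%) rose at 5 ng after quantile normalization, near the 17.2% and 20.6% of all genes, and 6 fell and 1 rose as deposited. The counts after quantile normalization are no result about the list, and the genes named next are single results. NARS2 and MARS2, which charge asparagine and methionine tRNAs, fell by 1.00 ± 0.09 and 0.67 ± 0.08 after quantile normalization, and by 1.41 ± 0.20 and 1.03 ± 0.17 as deposited. FARS2, which charges phenylalanine tRNA, rose by 0.94 ± 0.08 on the first scale and by 0.57 ± 0.18 as deposited (limma, adjusted p = 3.38e-08 and 0.02). Of 9 genes for copying and transcribing mitochondrial DNA, 4 (44.4%) fell and 0 rose after quantile normalization, and 5 fell as deposited. TFAM, which packages mitochondrial DNA and starts its transcription, fell by 0.81 ± 0.12 after quantile normalization, and the helicase gene TWNK by 0.65 ± 0.08.

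Of 9 activators of mitochondrial gene expression, 3 (33.3%) fell and 1 rose at 5 ng after quantile normalization, and 4 fell as deposited. The values that follow in this paragraph are quantile-normalized. PPRC1, a coactivator, fell by 0.88 ± 0.11, NRF1 by 0.65 ± 0.08 and MYC by 0.30 ± 0.08 (limma, adjusted p = 3.54e-06, 1.94e-06 and 0.00376). YY1 and GABPA differed by -0.02 ± 0.05 and -0.05 ± 0.13, which did not pass. Of the 4 mitoribosomal protein genes with other symbols that were measured, PTCD3 fell by 0.53 ± 0.08, and DAP3, CHCHD1 and GADD45GIP1 gave 0.09, -0.16 and 0.01, with no call at 5 ng.

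The subunits of respiratory complex I and the cytosolic ribosome gave other counts. Of 33 nuclear genes for complex I, 13 (39.4%) rose and 4 (12.1%) fell at 5 ng after quantile normalization, against 20.6% and 17.2% of all genes (median 0.07, as for all genes). As deposited 0 rose and 7 (21.2%) fell, against 4.52% and 23.5% of all genes (median -0.26). NDUFV3 rose by 0.79 ± 0.06 after quantile normalization, with 0.42 ± 0.16 as deposited (limma, adjusted p = 0.0585), and NDUFA6 fell by 0.30 ± 0.06. Of 58 cytosolic ribosomal protein genes, 4 rose and 4 fell at 5 ng, and 1 rose and 0 fell at 3 ng, after quantile normalization, where 15.4% of all genes rose and 12.5% fell at 3 ng. As deposited 4 of them fell at 5 ng and 17 (29.3%, against 23% of all genes) at 3 ng, with 0 rises. None of these lists was tested against another.

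**Figure D5:**
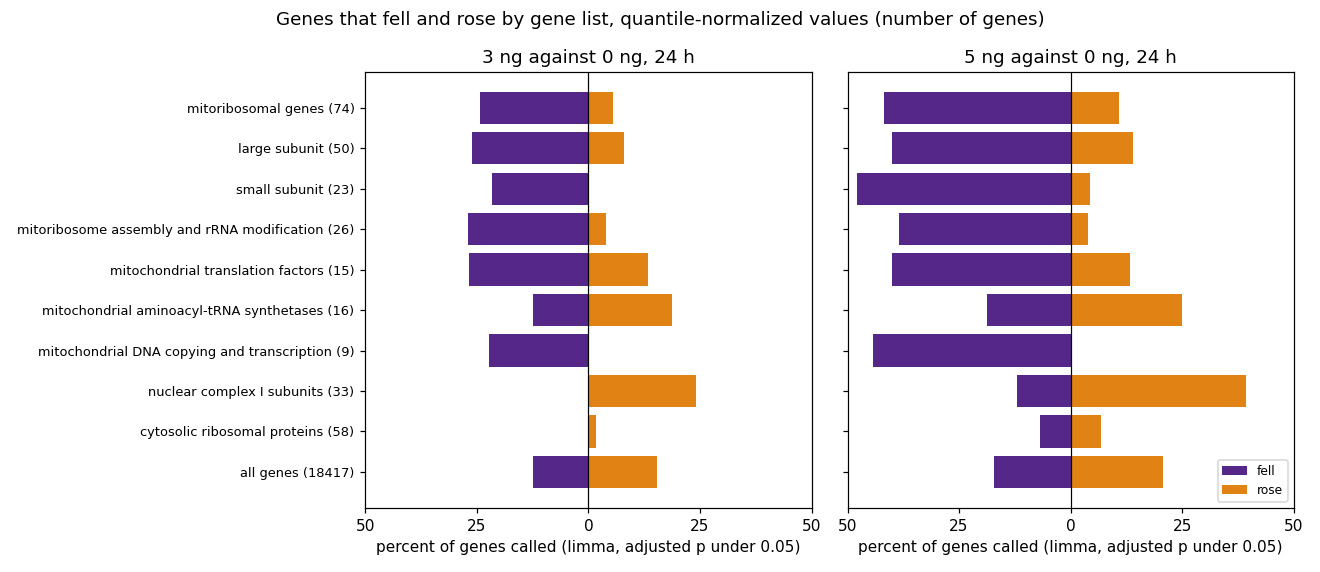
Bars give the percent of genes in each list that fell (left, purple) or rose (right, orange) at 24 h after quantile normalization, with 3 ng against 0 ng in the left panel and 5 ng against 0 ng in the right one. At 5 ng 31 of 74 mitoribosomal genes fell and 8 rose, 13 of 33 complex I genes rose and 4 fell, and of the 58 cytosolic ribosomal protein genes 4 rose and 4 fell.

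Of the 74 members, 46 passed in at least 1 comparison as deposited, 48 after quantile normalization, and 18 on neither scale. No member was called in opposite directions on the 2 scales within a comparison. Among the 3 members with several clusters, MRPL20 and MRPS18B had clusters of identical values, and the dimmer cluster of MRPL36 had differences of -0.255 and -0.245 at 3 ng and 5 ng, against -0.17 and -0.14 for the brighter one. Another 4 clusters that carry a mitoribosomal symbol beside a second gene's were left unnamed.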

How the data were processed

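The deposited values are log2 signals, 1 per transcript cluster and array, and per the submitters' processing notes GCOS, GCRMA, Affymetrix Power Tools and limma were used, with no versions, roles or order given. How signals were scaled between arrays was not stated. Probes were named through the platform annotation: of 33297 clusters 19460 had 1 symbol, 1754 several and 12083 were not listed, and Entrez identifiers matched 19429 to current records, with 0 symbols changed.

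A model with 1 mean per group was fitted to all 18417 genes and 20 arrays in limma 3.58.1 (R 4.3.3; 15 residual degrees of freedom) with eBayes, and calls required a p under 0.05 after Benjamini-Hochberg adjustment. No gene was filtered. Differences are log2, each with its standard error (SE) from limma. Precision is limited by the number of arrays. The fit was also run on simulated arrays with known changes and independent noise. These arrays did not differ in brightness, so that run cannot speak to the scaling of the real ones. Alternatives were quantile normalization, centring on array medians, removal of the dimmest 30%, only the groups compared, a replicate block, trend and robust eBayes, the mean of a gene's clusters, and each array left out.

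The members, lists, motifs and tests were chosen with earlier results of these data known. Named in the text are fixed genes, the pseudogene, and the 3 highest and 3 lowest means. Also named are most of the largest changes past the threshold (8 of each sign against 0 ng, 4 otherwise) and most members called on both scales. Not described above are MRPL4, MRPL9, MRPL11, MRPL21, MRPL22, MRPL46 and MRPL52, which fell on both scales with 5 ng at 12 h or 24 h. MRPS23, which rose after quantile normalization for 24 h against 12 h at 3 ng, is not described either.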

Additional observations from a re-analysis of the deposited data

Results flagged for a closer look

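Of 370 gene and group combinations of 4 arrays, 12 had 1 array whose gap to the nearest other passed Dixon's 95% limit, where chance flags about 1 in 20. Values are deposited log2 signals. Replicate 1 of 5 ng at 12 h was the low array in 6 of them, with MRPL13 at 5.44 (the other arrays 6.07 to 6.14), MRPL32 at 8.30 (8.70 to 8.72), MRPL48 at 7.73 (8.10 to 8.13), MRPS10 at 9.23 (9.57 to 9.63), MRPS25 at 6.87 (7.20 to 7.26) and MRPS9 at 7.36 (7.76 to 7.78). In the 5 ng group at 24 h replicate 4 was high for MRPL22, at 7.83 (7.35 to 7.38), and for MRPS27, at 8.26 (8.08 to 8.09). In the 3 ng group at 24 h replicate 2 was high for MRPL16, at 7.27 (6.99 to 7.01), and for MRPL41, at 8.68 (8.38 to 8.43), and replicate 4 was low for MRPL43, at 6.82 (7.09 to 7.14). In the 0 ng group replicate 4 was high for MRPL34, at 6.35 (5.97 to 6.03). No member passed in the limma interaction test of dose and time, which does not show that the dose effects were equal at both times.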

How the results depend on the processing

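The counts of members called depended on the scaling of the arrays. After quantile normalization, 8 members rose and 31 fell with 5 ng at 24 h against 0 ng (0 and 43 as deposited), 4 rose and 18 fell with 3 ng at 24 h (0 and 40), 5 rose and 26 fell with 5 ng at 12 h (0 and 19), 3 rose and 20 fell with 3 ng at 12 h (0 and 2), 3 rose and 6 fell for 5 ng against 3 ng at 24 h (0 and 0), and for 24 h against 12 h 4 rose and 7 fell at 5 ng and 8 rose and 2 fell at 3 ng (0 in each direction as deposited). With arrays centred on their median, 24 fell and 1 rose with 5 ng at 24 h, and 20 fell with 3 ng at 24 h. With the same centring, 13 fell and 1 rose with 5 ng at 12 h, 45 fell with 3 ng at 12 h, and 1 rose for 5 ng against 3 ng at 24 h. Without the dimmest 30% of genes, 33 fell and 1 rose with 5 ng at 12 h, 7 fell with 3 ng at 12 h, and 1 fell for 24 h against 12 h at either dose. With trend and robust eBayes these counts were 36 and 1, 8, and 1 at either dose. With only the groups compared, 11 fell with 5 ng at 12 h, 0 with 3 ng at 12 h and 1 for 24 h against 12 h at 5 ng. The mean of a gene's clusters moved no count by over 1.5 times.

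The labels do not tie arrays of the same number together, so the numbers were not used as pairing. Not every same-numbered pair correlated over 0.1, but on both scales such pairs did so more often than differently numbered ones. Whether arrays of the same number share an origin was not tested. As deposited, the deviations from the group means of 40 same-numbered pairs correlated from -0.179 to 0.501 (median 0.0585, 13 over 0.1), and 20 of 120 differently numbered pairs were over 0.1 (median -0.0238). After quantile normalization, 12 of the 40 were over 0.1 (median 0.0604), against 4 of the 120 (median -0.0134). With the replicate number as a block, 48 members fell with 5 ng and 46 with 3 ng at 24 h, 26 fell and 1 rose with 5 ng at 12 h, 4 fell with 3 ng at 12 h, and 1 fell for 24 h against 12 h at 5 ng.

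Without 1 array at a time, the falls as deposited ran from 28 to 50 with 5 ng and from 24 to 50 with 3 ng at 24 h, from 5 to 34 (rises 0 to 1) with 5 ng at 12 h, from 0 to 31 with 3 ng at 12 h, and from 0 to 1 for 24 h against 12 h at either dose. After quantile normalization, an alternative chosen after seeing the data, they ran from 29 to 31 (rises 7 to 8) with 5 ng and from 13 to 19 (rises 4 to 5) with 3 ng at 24 h, from 17 to 30 (rises 5 to 5) with 5 ng at 12 h, from 13 to 21 (rises 2 to 3) with 3 ng at 12 h, from 1 to 7 (rises 1 to 4) for 5 ng against 3 ng at 24 h, and for 24 h against 12 h from 3 to 9 (rises 3 to 4) at 5 ng and from 1 to 2 (rises 3 to 9) at 3 ng. For 5 ng against 3 ng at 12 h and for the interaction of dose and time, no setting gave a call.

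Quantile normalization turned the sign of 13 differences that were called on at least 1 of the scales. With 5 ng at 24 h the log2 difference after it was 0.28 for MRPL18, 0.25 for MRPL28, 0.35 for MRPL53 and 0.23 for MRPS9. With 3 ng at 24 h it was 0.28 for MRPL14, 0.31 for MRPL27, 0.23 for MRPL28, 0.28 for MRPL53 and 0.061 for MRPS18A. With 3 ng at 12 h it was 0.17 for MRPL18, and for 24 h against 12 h at 3 ng it was 0.20 for MRPL28, 0.24 for MRPL33 and 0.20 for MRPS34. For each of these changes with the setting the cause was not tested. A change shared by most genes cannot be told apart from a difference in scaling between arrays, and signal over background was not analysed here.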
